A study of Mus musculus with 19 samples.

Results

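Imprinted genes are expressed mainly from the allele inherited from 1 parent, because DNA methylation laid down in the egg or the sperm marks a control region of their domain. The 10 genes described here are imprinted genes outside the Meg3 locus: H19, Igf2, Peg3, Peg10, Snrpn, Grb10, Igf2r, Impact, Cdkn1c and Plagl1. They were chosen by name, and all 10 are among the 12778 genes of the authors' deposited expression matrix. In the mouse, Igf2, Peg3, Peg10, Snrpn, Impact and Plagl1 are known as genes of the paternal allele. H19, Igf2r, Cdkn1c and, outside the brain, Grb10 are known as genes of the maternal allele. Imprints are read in pluripotent cells as a sign of how well a line has kept its epigenetic state, and they can be lost during reprogramming and in culture. The values used here are not split by allele, so a level below is the sum of both alleles.

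The data are 19 libraries made with QuantSeq, a method that reads mRNAs at their 3′ end, from mouse cells grown in LIF and FBS. Induced pluripotent stem cells (iPSC) had been made from embryonic fibroblasts (MEFs) with Oct4, Sox2 and Klf4 and were collected more than 18 passages later. Wild type (WT) iPSC had 3 libraries. The iPSC with a knockout (KO) of the miR-290 cluster, of the miR-302 cluster, or of both (double KO) had 2 colonies each, with 2 libraries a colony, and embryonic stem cells (ESC) with the miR-290 KO or the miR-302 KO had 2 libraries each. Colonies are stated to be independent derivations, but the WT iPSC are excepted from that statement, so the WT libraries may stand for a single derivation and p-values against WT may be too small. No WT ESC library was analysed here. Recovered totals ran from 6368949 to 24741259 reads a library, with a median of 17302354. At 3 reads, the smallest number taken as above 0, this gives a floor between 0.121 and 0.470 CPM, the reads of a gene scaled to a fixed library total.

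Both deleted clusters hold microRNAs of the same seed family. The seed, bases 2 to 8 of the mature microRNA, is the part that pairs with target mRNAs, and the family is known for its role in the cell cycle of pluripotent cells. Of the 9 3p strands of the clusters in the RefSeq table (GRCm38.p6), 5 share 1 seed, and these are shown. Each single KO lacks those of its own cluster, and the double KO lacks all 5. Seed bases are in capitals and the sequences read 5′ to 3′.
miR-291a-3p: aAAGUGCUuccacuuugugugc
miR-294-3p: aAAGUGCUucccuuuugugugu
miR-295-3p: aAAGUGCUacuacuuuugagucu
miR-302b-3p: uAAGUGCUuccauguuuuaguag
miR-302d-3p: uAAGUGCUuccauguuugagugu
The first 3 lie in the miR-290 cluster on chromosome 7 and the last 2 in the miR-302 cluster on chromosome 3. A match to that seed, AGCACTT, was looked for on the sense strand of the longest annotated 3′ UTR of each gene (GENCODE M21). It was found in 17.5% of 11844 genes of the matrix and in 2 of the 9 members with a 3′ UTR, Peg10 and Impact, with 1 match each. The match in Peg10, at base 3711 of a UTR of 5166 bases, reads as follows, with the match in capitals.
Peg10: tcttttattttAGCACTTccaacaaaaat
Neither Peg10 nor Impact passed the test in any of the 3 comparisons of KO iPSC with WT iPSC below. A match of letters is a description, not a site of action.

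The cells were checked against markers of their labelled type. Summed over 10 pluripotency genes, among them Pou5f1, Nanog and Sox2, levels ran from 2957.5 to 3626.5 CPM in WT iPSC and from 2997.6 to 4719.7 CPM in the iPSC and ESC of the single KOs. In the double KO they ran from 206.7 to 327.9 CPM, and all 10 genes were lower than in WT at an adjusted p under 0.05, so that the iPSC label of the double KO is not borne out by these markers. Each gene below is therefore compared between cells that also differ in their pluripotency genes, and the part of this difference in the results was not tested. A level in bulk RNA cannot tell fewer cells of a type from less RNA per cell.

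Some libraries stood apart from their labels or their group. Library 2 of colony 1 of the miR-302 KO iPSC had a mean correlation of 0.852 with its group across genes, against 0.904 or more in each other library, and Nanog at 152.26 CPM against 584.86 to 971.56 in the other 3. The colony labels of this group did not pair its libraries. On deviations from the mean of all libraries, its same-colony libraries had correlations of 0.13 and 0.28 across genes, while pairs from different colonies reached 0.43. In the double KO the same-colony pairs were both at 0.94, against 0.81 to 0.84 between colonies. The Y-linked gene Uty had 4.01 CPM in library 1 and 0.05 CPM in library 2 of colony 2 of the miR-302 KO iPSC, which are labelled as the same colony. In colony 1 another Y-linked gene, Ddx3y, had 0 CPM in library 1 and 13.06 CPM in library 2. Uty ran from 1.96 to 2.43 CPM in WT iPSC and from 3.78 to 14.89 CPM in miR-290 KO cells. It was at most 0.06 CPM in the double KO and at most 0.05 CPM in miR-302 KO ESC. Xist ran from 613.54 to 665.89 CPM in the double KO and was at most 9.39 CPM elsewhere. These sex-linked genes were chosen after their values were seen. Double KO and WT iPSC thus also differ in them, and the part of this difference in the results below was not tested. Results on the miR-302 KO iPSC are given without the library in doubt where that changes a call.

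The first comparison asked how the loss of both clusters left the imprinted genes. Double KO and WT iPSC differed in 8 of the 10 members: H19, Igf2, Igf2r, Grb10, Cdkn1c, Plagl1 and Snrpn were lower in the double KO and Peg3 was higher. Of all genes tested, 54% passed the same test (limma, Benjamini-Hochberg adjusted p under 0.05), 30.6% higher and 23.4% lower, so most genes of the matrix moved in these cells. The median log2 change of the members was −2.24 with the summed reads of Snrpn and Snurf, explained below, in place of the Snrpn row (−3.01 with the row), against 0.17 over all genes. Peg10 and Impact did not pass. Where libraries of the double KO and WT are said below not to overlap, the share of all genes that do the same was not counted.

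**Figure D1:**
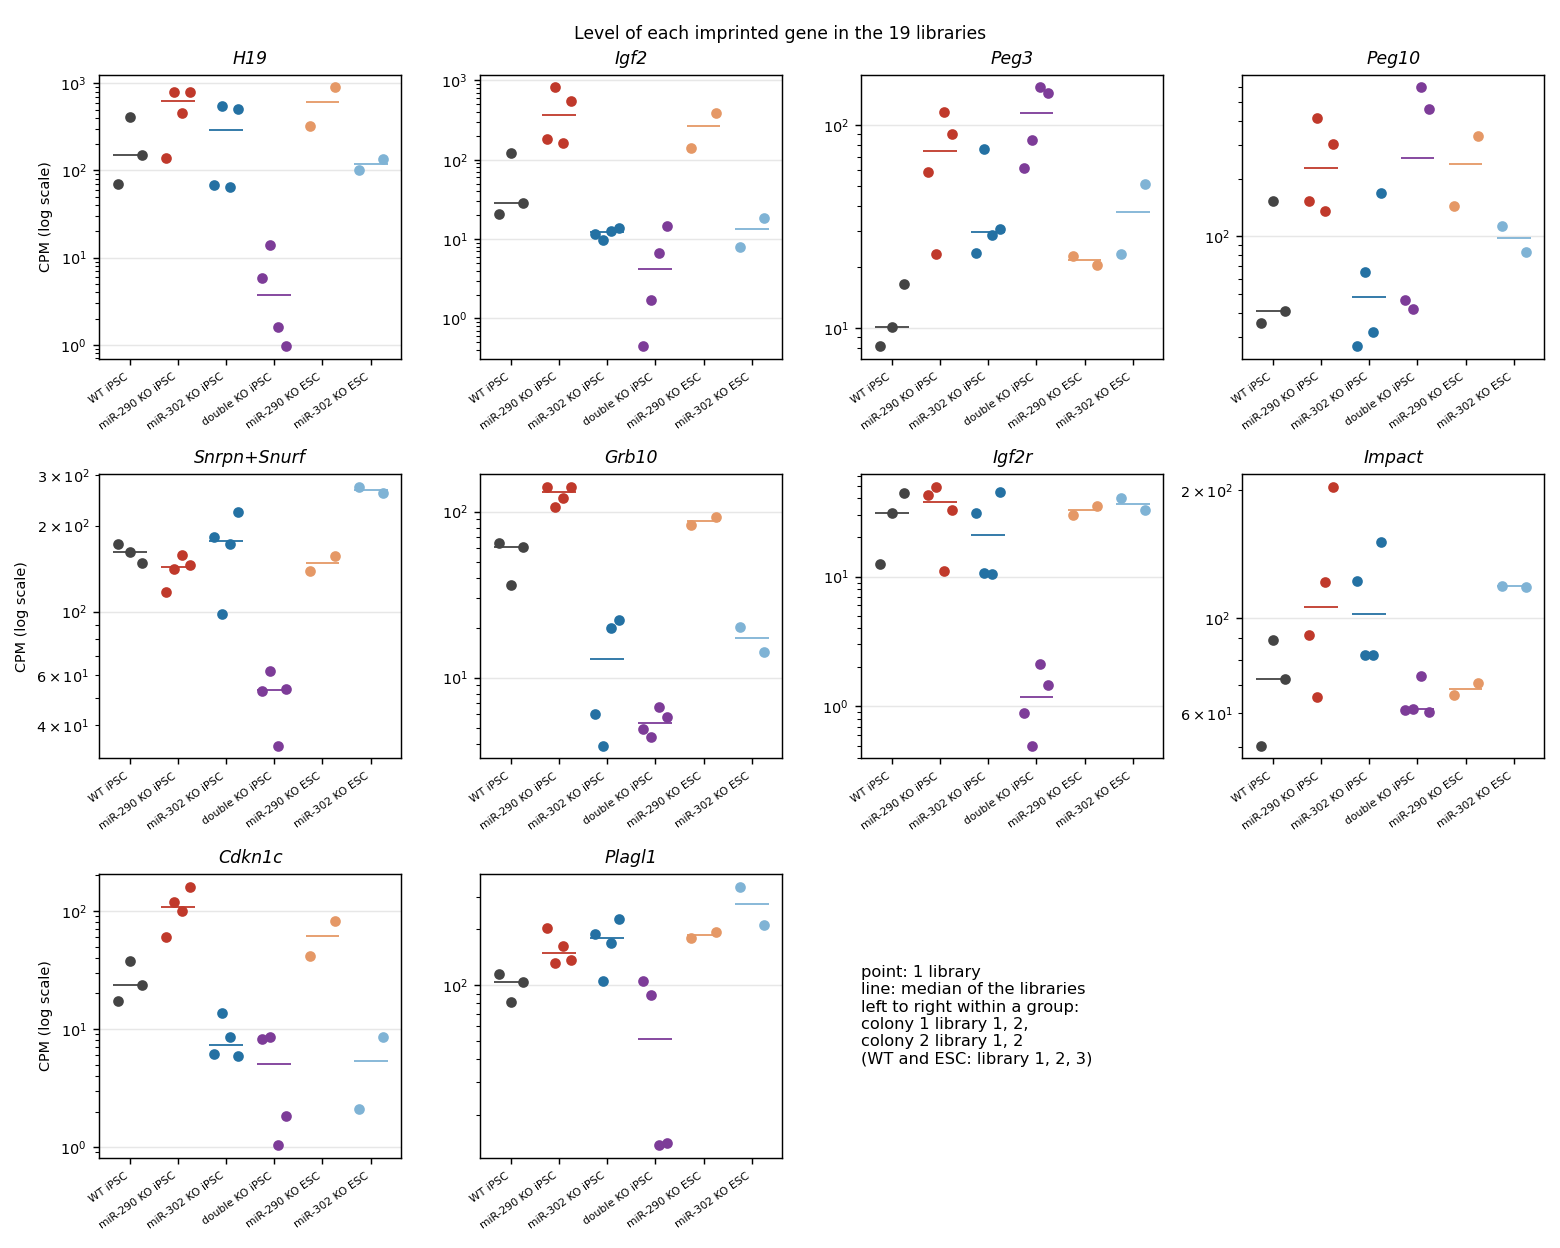
Level of each imprinted gene in CPM (log axis) in the 19 libraries, by group; points are libraries and lines are group medians. The 4 double KO libraries lie below every other library for H19, Igf2r and Snrpn with Snurf, and above the 3 WT libraries for Peg3.

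H19 is a long non-coding RNA made from the maternal allele, next to Igf2 (H19 on chromosome 7 at 142575529 to 142578143, Igf2 at 142650766 to 142666816, GRCm38). H19 had 69.19, 412.10 and 149.47 CPM in WT libraries. It had 5.79 and 13.80 CPM in colony 1 and 1.62 and 0.97 CPM in colony 2 of the double KO. The groups did not overlap, and the lowest WT library was above the highest double KO library. The group means were 210.25 ± 179.35 CPM in WT (SD, n = 3) and 5.54 ± 6.01 in the double KO (SD, n = 2 colonies), a ratio of 37.92. On the log2 scale H19 fell by 5.43 (SE 0.83, adjusted p 1.28e-04), the largest fall of the 9 members whose reads could be counted in single rows.

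Igf2 encodes insulin-like growth factor 2, a fetal growth factor of the paternal allele. It had 20.96, 122.83 and 28.49 CPM in WT, and 0.45 and 1.72 CPM in colony 1 and 6.59 and 14.73 CPM in colony 2 of the double KO. Every double KO library lay below every WT library, but colony 2 came near the lowest of them. The log2 change was −3.69 (SE 0.90, adjusted p 0.00405), with means of 57.43 ± 56.77 CPM (SD, n = 3) and 5.87 ± 6.77 CPM (SD, n = 2). Without colony 1 of the double KO it was −2.04, with an adjusted p of 0.081. Where a colony is left out, here and below, the remaining one is a single sample that is assumed to vary like the other groups. H19 and Igf2, known to be active on different alleles, both fell.

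Igf2r, the receptor that takes up IGF2 for breakdown in lysosomes, is active on the maternal allele (chromosome 17, 12682406 to 12769664). It had 12.44, 30.80 and 43.88 CPM in WT and 0.89, 0.50, 2.14 and 1.46 CPM in the double KO. The highest double KO library was far below the lowest WT library. Igf2r fell by 4.20 on the log2 scale (SE 0.51, adjusted p 1.89e-05), with means of 29.04 ± 15.79 CPM (SD, n = 3) and 1.25 ± 0.78 CPM (SD, n = 2). Among the 24 genes of the insulin-like growth factor pathway outside the members, 21 were measured. In the double KO 10 of them rose and 6 fell, where 30.6% of all genes rose and 23.4% fell. The 3 largest rises were in Igfbp3, a binding protein of IGF in blood and tissue (7.76, SE 0.50, all on the log2 scale), and the docking proteins Irs1 (5.13, SE 1.06) and Irs2 (3.34, SE 0.50). The 3 largest falls were in the binding proteins Igfbp2 (−4.20, SE 0.29), Igfbp4 (−3.43, SE 0.56) and Igfbp5 (−2.08, SE 0.61).

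Grb10 encodes an adaptor that binds the insulin and IGF1 receptors and dampens their signal (chromosome 11, 11930508 to 12038683). Its levels were 64.63, 36.27 and 61.08 CPM in WT and 4.90, 4.38, 6.65 and 5.76 CPM in the double KO. Both colonies lay close together and apart from WT, with means of 53.99 ± 15.45 CPM (SD, n = 3) and 5.42 ± 1.11 CPM (SD, n = 2). Grb10 fell by 3.25 on the log2 scale (SE 0.37, adjusted p 1.21e-05).

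Cdkn1c encodes p57, an inhibitor of cyclin-dependent kinases of the Cip/Kip family (chromosome 7, 143458339 to 143461050). It had 17.43, 37.55 and 23.57 CPM in WT. In the double KO it had 8.28 and 8.62 CPM in colony 1 and 1.04 and 1.82 CPM in colony 2. No double KO library reached the WT range. Cdkn1c fell by 2.76 on the log2 scale (SE 0.67, adjusted p 0.00365), and by 1.5 without colony 2 (adjusted p 0.0704). Of 14 genes for other inhibitors, cyclins D and E and their kinases, 8 rose and 3 fell in the double KO. The shares over all genes were 30.6% and 23.4%. Ccnd2 (9.39, SE 0.32), Cdkn2c (6.25, SE 0.78) and Cdkn2a (3.21, SE 0.38) had the largest rises, and Ccne1 (−1.81, SE 0.22), Cdk6 (−1.77, SE 0.38) and Ccnd3 (−1.28, SE 0.29) the falls, all on the log2 scale. Cdkn1a and Cdkn1b, the other Cip/Kip inhibitors, were among the genes that rose (2.22, SE 0.21, and 1.42, SE 0.36), so that Cdkn1c was the only one of the 3 that fell.

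Plagl1 encodes a zinc finger factor that is known to act on other imprinted genes (chromosome 10, 13060504 to 13131694). It had 115.19, 81.30 and 104.13 CPM in WT. Colony 1 of the double KO had 105.74 and 88.67 CPM, inside the WT range, while colony 2 had 13.77 and 14.13 CPM. Plagl1 fell by 1.43 on the log2 scale (SE 0.52, adjusted p 0.0315). Without colony 2 the change was −0.05, with an adjusted p of 0.899. The mean was 100.21 ± 17.28 CPM in WT (SD, n = 3) and 55.58 ± 58.87 CPM in the double KO (SD, n = 2), a spread between colonies as large as the mean itself.

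Peg3, a zinc finger gene of the paternal allele known for its role in nurturing behaviour and growth, was the only member to rise (chromosome 7, 6703892 to 6730431). It had 8.15, 10.09 and 16.57 CPM in WT and 61.37, 84.94, 153.50 and 143.57 CPM in the double KO. The lowest double KO library was above the highest WT library. The rise was 3.30 on the log2 scale (SE 0.43, adjusted p 3.34e-05), with means of 11.60 ± 4.41 CPM (SD, n = 3) and 110.84 ± 53.30 CPM (SD, n = 2).

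Peg10, a retrotransposon-derived gene needed for the placenta (chromosome 6, 4747306 to 4760517), had 35.30, 153.21 and 40.76 CPM in WT. It had 46.34 and 41.75 CPM in colony 1 of the double KO but 596.89 and 463.37 CPM in colony 2. Its log2 change of 1.33 (SE 0.86, adjusted p 0.208) did not pass. Colony 1 lay inside the WT range and colony 2 above it. The change was 3.13 without colony 1 (adjusted p 0.00515, with 1 double KO sample) and −0.45 without colony 2 (adjusted p 0.652). Impact, a regulator of translation that binds GCN1, had 50.40, 89.06 and 72.17 CPM in WT and 61.18, 61.37, 73.34 and 60.51 CPM in the double KO. All double KO libraries lay inside the WT range, and the log2 change was −0.06 (SE 0.28, adjusted p 0.867).

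Snrpn encodes a protein of the spliceosome, and Snurf a small protein from the same transcript, since the annotated Snurf gene (chromosome 7, 59995449 to 60005049) lies inside Snrpn (59982495 to 60140219). The matrix holds them as separate rows between which reads are divided differently from library to library. The Snrpn row was at its lowest value, taken as 0 reads, in 5 of 19 libraries, and the Snurf row was at 0.01 or fewer reads in 4. Their sum came to a whole number of reads in all 19 libraries, while the Snrpn row did not on its own. The log2 change of −7.56 for the Snrpn row in the double KO therefore mixes the level of the transcript with this division and is not used as its size. Summed, Snrpn and Snurf had 172.42, 161.81 and 148.29 CPM in WT and 52.71, 61.87, 34.01 and 53.59 CPM in the double KO. The sum was 3.18 times lower in the double KO and fell by 1.72 on the log2 scale (SE 0.18, adjusted p 5.19e-06). The groups were far apart compared with their spread, with means of 160.84 and 50.55 CPM.

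**Figure D2:**
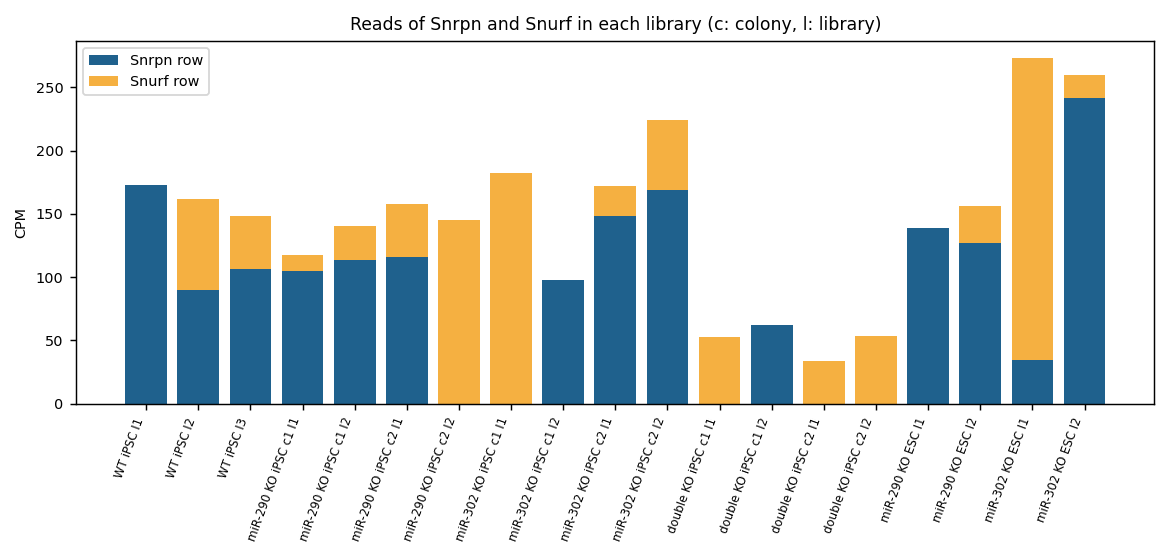
CPM of the Snrpn row and the Snurf row in each of the 19 libraries, stacked on a linear axis from 0; c stands for colony and l for library. The total is 34.01 to 61.87 CPM in the double KO and 98.03 CPM or more elsewhere, while the shares of both rows vary from 0 to all reads within groups.

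Of the neighbours of the members in their imprinted domains, some moved as the member did and some against it. In the double KO, Phlda2, a maternal gene of the domain of Cdkn1c that limits placental growth, fell, as Cdkn1c did, by 6.97 on the log2 scale (SE 0.38), from 47.26 to 74.80 CPM in WT to at most 0.79 CPM. Kcnq1ot1, the paternal non-coding RNA known to silence this domain, rose by 1.18 (SE 0.28), and its part in these falls was not tested. Usp29, next to Peg3, rose by 1.70 (SE 0.48), as Peg3 did. Sgce, which shares a promoter region with Peg10, rose by 3.35 (SE 0.69), to 38.69 to 52.89 CPM in all 4 double KO libraries, although Peg10 was high in colony 2 alone. Around Snrpn, Ndn (1.56, SE 0.40), Peg12 (1.85, SE 0.50) and the ubiquitin ligase gene Ube3a (0.80, SE 0.18) rose while the summed Snrpn and Snurf fell. Ddc, next to Grb10, rose by 2.91 (SE 0.24), against the fall of Grb10. The adjusted p of each of these 8 neighbours was 0.00985 or lower. Slc22a18, Zim1 and Airn were not analysed here.

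Among 49 further imprinted genes, 36 were measured, and 19 rose while 8 fell in the double KO, with a median log2 change of 1.13. Of all genes, 30.6% rose and 23.4% fell. The falls were largest in Mest (−7.34, SE 0.48), the amino acid transporter gene Slc38a4 (−7.31, SE 0.27) and Phlda2, and the rises in Pon2 (4.21, SE 0.85), Osbpl5 (4.04, SE 0.90) and Sgce, all on the log2 scale. The median of the members (−2.24 with the summed Snrpn and Snurf) and that of this list (1.13) lay on different sides of the median of all genes (0.17). Of 20 genes that set or keep imprints, 7 were lower and 2 higher, so 9 of 20 passed, where 54% of all genes did. Those with the largest changes are given as values. Dnmt3l, a cofactor of de novo DNA methylation, fell by 8.51 on the log2 scale (SE 0.24), Dppa3, which protects imprints in the zygote, by 7.60 (SE 0.52), and the methyltransferase gene Dnmt3b by 3.55 (SE 0.27). Ezh2 (0.88, SE 0.19) and Smchd1 (0.72, SE 0.23) were the 2 that rose. Zfp57, the zinc finger factor that holds methylation at imprinted control regions, had a log2 change of 1.05 (SE 0.51, adjusted p 0.0993), and the maintenance methyltransferase gene Dnmt1 one of −0.09 (SE 0.17, adjusted p 0.657).

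Markers of other cells that the cultures could hold were read beside these results. Of 14 fibroblast markers 6 were measured, with a sum of 321.6 to 1045.3 CPM in the double KO and 524.3 to 680.2 CPM in WT, and Twist1 rose while Thy1 and Pdgfrb fell. Of 12 primitive endoderm markers 4 were measured, with a sum of 622.5 to 768.6 CPM in the double KO and 28.3 to 36.8 CPM in WT. That sum was nearly all Col4a1 (620.80 to 766.75 CPM), and Gata4, a defining factor of that lineage, was at 0 CPM in all 4 double KO libraries. Of 10 trophoblast markers 8 were measured, with 12.5 to 67.5 CPM against 99.6 to 189.0 CPM, and 4 of them were lower and none higher (Plet1, Krt7, Tfap2c, Esx1). Over all genes 23.4% were lower and 30.6% higher.

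Promoter windows of 6 of the 10 members were searched for TGCCGC on both strands (RefSeq, GRCm38.p6). They are 13 windows from 250 bases before to 50 bases after a start. H19, Peg10 and Cdkn1c had no window in the list used, and windows of Impact are left out of the counts. These are the 6 bases that ZFP57 is known to bind when the central CpG is methylated. The motif was found in 4 of the 13 windows, against 11.6% of 32851 windows of all genes. No methylation was measured, so the match says nothing on binding. Windows of Grb10, Igf2r and Peg3 are shown because the first 2 genes fell and the last rose with all double KO libraries outside the WT range. Igf2 and the summed Snrpn and Snurf also lay outside it, but Igf2 and Snrpn have 4 windows each and none is printed. The median over all windows was 7 CpG dinucleotides. The members' windows lay on both sides of it, with 45 and 9 for Grb10, 34 for Igf2r, 26 for Plagl1, 13 for Peg3, 2 to 24 for Igf2 and 2 to 7 for Snrpn. Of the Grb10 windows the one with 45 is printed, and the other holds no match. Each printed window is on the minus strand and reads 5′ to 3′ with any match in capitals. The printed Grb10 window is chr11:12037371-12037670, with 1 match, that of Igf2r chr17:12769657-12769956, with none, and that of Peg3 chr7:6730370-6730669, with none.
Grb10: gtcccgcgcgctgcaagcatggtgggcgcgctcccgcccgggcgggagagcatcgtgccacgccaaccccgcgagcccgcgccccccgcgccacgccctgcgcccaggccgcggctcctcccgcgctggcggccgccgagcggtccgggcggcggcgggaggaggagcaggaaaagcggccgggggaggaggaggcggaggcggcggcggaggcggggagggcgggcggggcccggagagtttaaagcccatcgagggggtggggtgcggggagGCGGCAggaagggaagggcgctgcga
Igf2r: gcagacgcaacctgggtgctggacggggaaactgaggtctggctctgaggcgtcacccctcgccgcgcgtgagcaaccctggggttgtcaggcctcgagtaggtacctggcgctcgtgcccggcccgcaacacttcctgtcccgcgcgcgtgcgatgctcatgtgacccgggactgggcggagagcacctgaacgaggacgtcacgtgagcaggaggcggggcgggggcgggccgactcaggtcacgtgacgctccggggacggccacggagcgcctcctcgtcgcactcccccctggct
Peg3: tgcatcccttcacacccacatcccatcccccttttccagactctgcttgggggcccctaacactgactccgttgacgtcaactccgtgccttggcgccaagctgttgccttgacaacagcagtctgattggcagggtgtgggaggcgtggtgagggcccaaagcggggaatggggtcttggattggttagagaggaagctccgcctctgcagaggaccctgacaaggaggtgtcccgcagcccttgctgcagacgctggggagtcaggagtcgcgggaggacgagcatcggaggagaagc

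The 2 colonies of the double KO were then compared with each other, over their 2 libraries each, to see how far independent derivations had the same imprinted levels. Of the members, Plagl1 was higher in colony 1 (log2 difference 2.78, SE 0.31, adjusted p 1.23e-04) and Peg10 was lower in it (−3.58, SE 0.82, adjusted p 0.0277). Over all genes 2.9% passed. H19 (2.70, SE 1.13, adjusted p 0.344) and Cdkn1c (2.50, SE 0.65, adjusted p 0.0571) were at higher values in both libraries of colony 1. Igf2 was at higher values in both libraries of colony 2 (−3.26, SE 0.93, adjusted p 0.09), so the values of H19 and Igf2 differed between the colonies in opposite directions, without passing the test. Grb10 (−0.41, SE 0.31), Impact (−0.12, SE 0.34) and the summed Snrpn and Snurf (0.42, SE 0.28) differed least. The call of Peg10 was lost when any 1 of the 4 libraries was left out (adjusted p 0.136 to 0.217), which leaves a single library on that side, and its log2 difference was then −3.39 to −3.76.

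**Figure D3:**
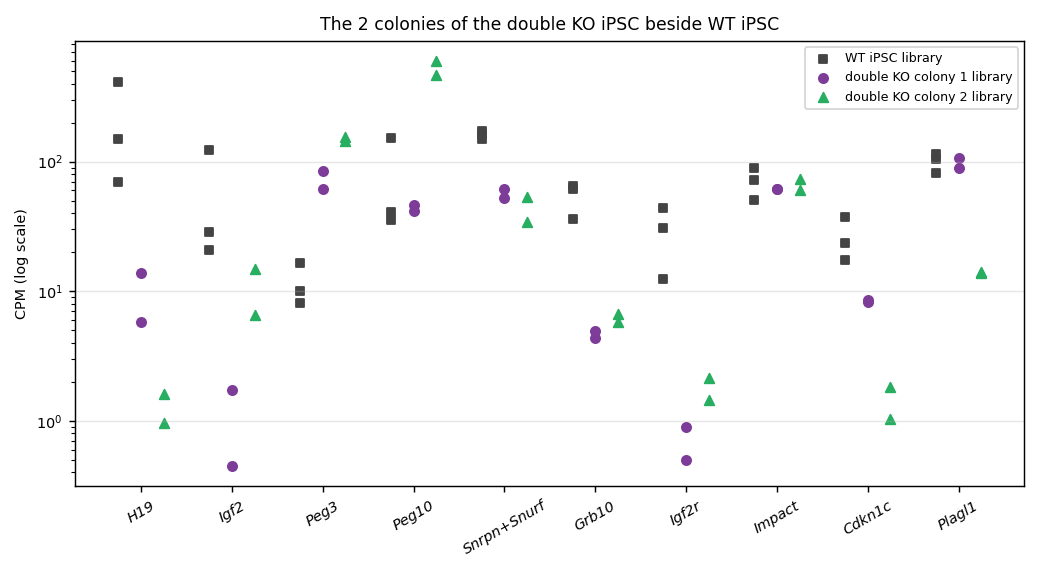
CPM (log axis) of each imprinted gene in the 3 WT iPSC libraries (squares) and the libraries of colony 1 (circles) and colony 2 (triangles) of the double KO iPSC. The colonies are apart for Plagl1, Peg10, Cdkn1c, Igf2 and H19 and lie together for Grb10 and Impact.

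Of the further imprinted genes, 3 of 36 differed between the double KO colonies, against 2.9% of all genes, and they are named here after their values were seen. Nnat, a paternal gene of neural and endocrine cells, had 66.40 and 138.40 CPM in colony 1 and 1.5 and 0.36 CPM in colony 2 (log2 difference 6.72, SE 0.64, adjusted p 2.79e-05). Peg13, a paternal non-coding RNA, had 0.06 and 0 CPM in colony 1 and 16.08 and 17.16 CPM in colony 2 (−6.61, SE 0.75, adjusted p 1.24e-04). Ppp1r9a, near Peg10, was higher in colony 1 (1.30, SE 0.32, adjusted p 0.041), where Peg10 was lower. Trophoblast markers Plet1 (−3.05), Tfap2c (−3.19) and Cdx2 (−5.15) and the pluripotency gene Tdgf1 (−2.10) were lower and the fibroblast markers Fn1 (1.58) and Fbn1 (3.59) higher in colony 1 on the same log2 scale, and their part in the difference between colonies was not tested.

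The single KOs were compared with WT to ask what each cluster alone changed. In miR-290 KO iPSC 1 of 10 members passed, against 3.02% of all genes. Peg3 had 58.97 and 23.25 CPM in colony 1 and 115.99 and 90.27 CPM in colony 2, each above the highest WT library (16.57 CPM). Its rise was 2.56 on the log2 scale (SE 0.44, adjusted p 0.0112). The call was lost without WT library 1 (2.24, adjusted p 0.0529) and without colony 2 (1.83, adjusted p 0.139). Igf2 had 180.28, 815.42, 163.39 and 545.69 CPM in the 4 libraries, all above the highest WT library at 122.83 CPM, with a log2 change of 3.02 that did not pass (SE 0.93, adjusted p 0.0982). Cdkn1c, at 59.97 to 161.11 CPM, also lay above all WT libraries, with a log2 change of 2.08 (SE 0.68, adjusted p 0.119). The same was so for Grb10, at 107.23 to 140.80 CPM, with a log2 change of 1.27 (SE 0.38, adjusted p 0.091). How many of all genes lay wholly above or below the WT libraries was not counted, so nothing is drawn from that.

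The other members did not pass against WT in the miR-290 KO. H19 had 139.66, 786.38, 456.68 and 792.36 CPM (log2 change 1.54, SE 0.85, adjusted p 0.334), and Peg10 had 135.28 to 411.65 CPM (1.89, SE 0.88, adjusted p 0.255). Igf2r (0.37, SE 0.52), Impact (0.72, SE 0.29), Plagl1 (0.65, SE 0.53) and the summed Snrpn and Snurf (−0.22, SE 0.18) had adjusted p-values of 0.184 or more. With each library as a sample, which counts both libraries of a colony, Igf2, Grb10 and Cdkn1c also passed (adjusted p 0.0242, 0.0146 and 0.0333), and so did more of all genes, 12.5% in place of 3.02%. In the further lists, Slc38a4 was the only imprinted gene that passed (−1.21, SE 0.27, adjusted p 0.0344), and no gene that sets or keeps imprints did. Ccnd2 (3.20), Ccne2 (1.22) and Cdkn1a (0.88) of the list of Cdkn1c partners and Irs2 (2.17) of the growth factor list rose on the log2 scale. Of 4 primitive endoderm markers measured, 1 passed, Col4a1 (1.94, SE 0.31, adjusted p 0.00943), at 70.63 to 150.26 CPM against 18.65 to 30.48 CPM in WT. The 4 markers summed to 80.8 to 158.5 CPM in the miR-290 KO iPSC and 28.3 to 36.8 CPM in WT, and their part in the results was not tested. None of 6 fibroblast and 8 trophoblast markers passed.

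In miR-302 KO iPSC no member passed against WT with limma, where 0.0391% of all genes did and 1355 genes had an unadjusted p under 0.05. Grb10 had 6.05 and 3.90 CPM in colony 1 and 19.88 and 22.38 CPM in colony 2, all below the lowest WT library (36.27 CPM). Its log2 change was −2.35 (SE 0.47, unadjusted p 2.57e-04, adjusted p 0.24). With libraries as samples it passed (−2.13, adjusted p 0.0128), where 0.337% of all genes did. Igf2 had 11.59, 9.70, 12.79 and 13.93 CPM, below the lowest WT library (20.96 CPM), with a log2 change of −1.79 (SE 1.15, adjusted p 0.56). Cdkn1c had 6.11, 13.69, 8.48 and 5.88 CPM, also below all WT libraries (log2 change −1.58, SE 0.85, adjusted p 0.495). Peg3, at 23.41 to 75.90 CPM, lay above all WT libraries (1.76, SE 0.54, adjusted p 0.427). Nothing is drawn from these positions outside the WT range, since their share over all genes was not counted here either. H19 (0.29, SE 1.05), Igf2r (−0.20, SE 0.64), Peg10 (−0.13, SE 1.08), Impact (0.66, SE 0.35), Plagl1 (0.74, SE 0.65) and the summed Snrpn and Snurf (−0.01, SE 0.23) had adjusted p-values of 0.495 or more. Without colony 2 of the miR-302 KO, 16.6% of all genes passed, and Peg3 (2.01), Grb10 (−3.39) and the Snrpn row (−5.05) were among them. The group was then colony 1 alone, which holds the library in doubt. The Snrpn row was at 0 CPM in library 1 of that colony, where its sum with Snurf was 182.23 CPM.

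**Figure D4:**
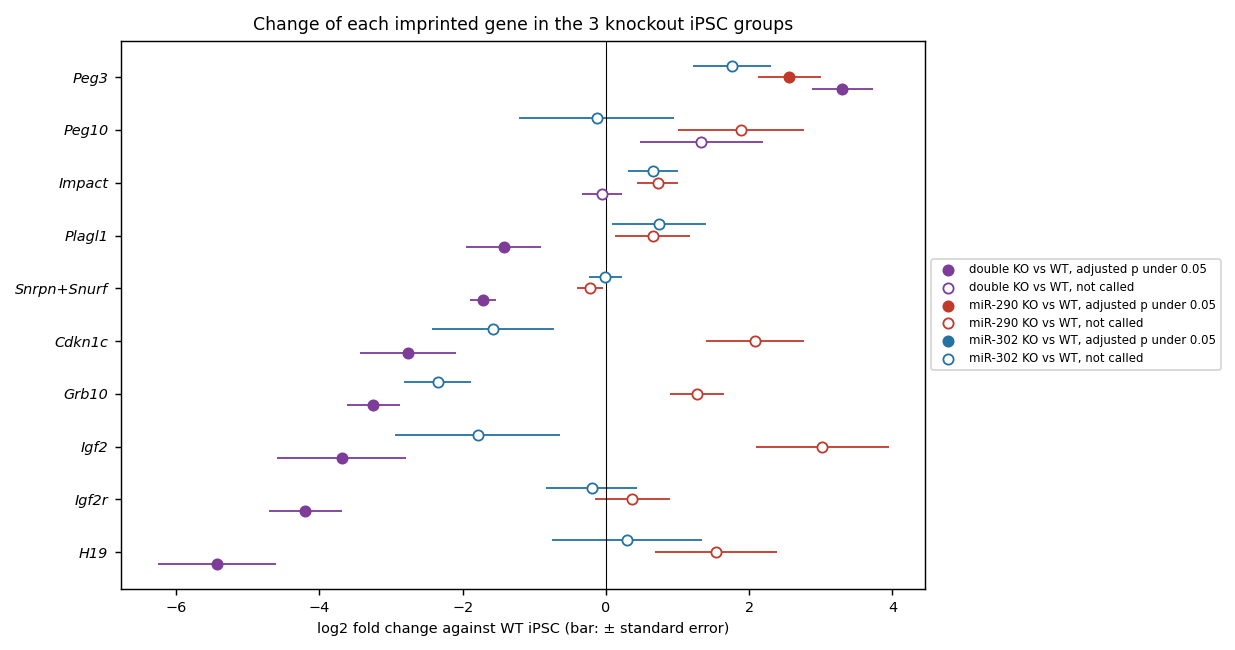
Log2 fold change of each imprinted gene against WT iPSC with its standard error, for the double KO, the miR-290 KO and the miR-302 KO iPSC; filled points have an adjusted p under 0.05. Igf2, Grb10 and Cdkn1c lie right of 0 in the miR-290 KO and left of 0 in the miR-302 KO, where 3.02, 1.27 and 2.08 stand against −1.79, −2.35 and −1.58, none of them past the test.

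The single KOs were set against each other in both cell types. In iPSC, Grb10 was higher in the miR-290 KO by 3.62 on the log2 scale (SE 0.53, adjusted p 0.0131), the 1 member of 10 that passed, against 0.18% of all genes. That call was lost under 4 of 24 alternatives, with an adjusted p between 0.0614 and 0.0783. Its means were 127.39 ± 4.78 CPM and 13.05 ± 11.42 CPM (SD, n = 2 colonies each), a ratio of 9.76. Igf2 (4.81, SE 1.28, adjusted p 0.135) and Cdkn1c (3.66, SE 0.94, adjusted p 0.127) did not pass, and both did without library 2 of colony 1 of the miR-302 KO (adjusted p 0.045 and 0.0289), where 1.77% of all genes passed. In ESC, Grb10 had 82.97 and 92.84 CPM in the miR-290 KO and 20.12 and 14.34 CPM in the miR-302 KO, a log2 difference of 2.36 (SE 0.44, adjusted p 0.0338), against 0.618% of all genes. The call in ESC was lost under 10 of 24 alternatives, with an adjusted p between 0.0537 and 0.463. Cdkn1c had 41.57 and 82.38 CPM against 2.09 and 8.59 CPM (3.73, SE 0.79, adjusted p 0.0566), and Igf2 had 139.80 and 387.97 CPM against 7.88 and 18.61 CPM (4.25, adjusted p 0.0997).

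The ESC libraries are separate from the iPSC libraries and share no control with them. The miR-290 KO and miR-302 KO libraries did not overlap for Grb10, Igf2 or Cdkn1c in either cell type. How many of all genes do the same was not counted, so nothing is drawn from that. The difference between the differences (iPSC minus ESC) was 1.26 for Grb10 (SE 0.69), 0.57 for Igf2 (SE 1.67) and −0.07 for Cdkn1c (SE 1.23) on the log2 scale, each with an adjusted p of 0.999. No gene of the matrix passed that test (0%, with 379 genes at an unadjusted p under 0.05), so a difference between the cell types was not shown, and the standard errors leave room for one. The Y-linked genes moved with the same groups. In ESC, Uty had 3.78 to 5.96 CPM in the miR-290 KO and at most 0.05 CPM in the miR-302 KO. In iPSC it had 6.55 to 14.89 CPM in the miR-290 KO and 0.05 to 4.01 CPM in the miR-302 KO. The part of this difference in the results was not tested. In ESC the trophoblast markers moved with the groups too, at 147.9 to 204.3 CPM summed in the miR-290 KO and 74.4 to 136.3 CPM in the miR-302 KO, with 1 of 8 called, Krt7 (6.09, SE 0.93, adjusted p 0.0138), and their part was not tested either.

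The remaining members did not pass the test between the ESC groups. H19 had 324.33 and 896.35 CPM in the miR-290 KO ESC against 101.42 and 136.80 CPM (2.19, SE 0.97, adjusted p 0.354). The summed Snrpn and Snurf had 139.16 and 156.46 CPM against 273.19 and 260.06 CPM (−0.85, SE 0.21, adjusted p 0.0966). Impact had 66.25 and 70.76 CPM against 119.27 and 118.67 CPM (−0.80, SE 0.33, adjusted p 0.314). Igf2r (−0.16), Peg3 (−0.68), Peg10 (1.17) and Plagl1 (−0.52) had adjusted p-values from 0.612 to 0.948.

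Cells of the same KO were compared between iPSC and ESC. These are separate lines, so an effect of reprogramming cannot be told apart from other differences between lines. For the miR-290 KO no member passed (limma, 0.0313% of all genes, with 922 genes at an unadjusted p under 0.05), and for the miR-302 KO none did either (0% of all genes, with 561 at an unadjusted p under 0.05). Beside the Snrpn row, Peg3 had the largest difference in the miR-290 KO, at 20.48 and 22.57 CPM in ESC and 23.25 to 115.99 CPM in iPSC (log2 difference 1.51, SE 0.43, adjusted p 0.474). In the miR-302 KO the largest, again beside the Snrpn row, were Cdkn1c (0.89, SE 1.02) and Igf2r (−0.86, SE 0.78), with adjusted p-values of 0.953 and 0.937. A difference was thus not shown, and standard errors such as that of Igf2 in the miR-302 KO (1.39) leave room for one.

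The double KO was also set against each single KO, which share the double KO libraries with the comparison above. Against the miR-290 KO, 7 members were lower and none higher, with 33.4% of all genes called: H19 (−6.97), Igf2 (−6.71), Cdkn1c (−4.84), Igf2r (−4.57), Grb10 (−4.53), Plagl1 (−2.08) and the Snrpn row, or −1.5 for the summed Snrpn and Snurf (adjusted p 1.52e-04). Against the miR-302 KO, where 38.6% of all genes were called, 4 members were lower: H19 (−5.72), Igf2r (−4.00), Plagl1 (−2.18) and the Snrpn row, or −1.71 for the sum (adjusted p 1.97e-04). Grb10 (−0.91, SE 0.52, adjusted p 0.185), Igf2 (−1.89, SE 1.26, adjusted p 0.255) and Cdkn1c (−1.18, SE 0.93, adjusted p 0.338) did not pass there, nor did Peg3, the nearest to the threshold and the 1 with a positive change beside Peg10 (1.54, SE 0.60, adjusted p 0.0561). Peg3 passed as higher under 10 of 24 alternatives. Without colony 2 of the double KO, the Plagl1 change was −0.69 against the miR-290 KO (adjusted p 0.0997) and −0.79 against the miR-302 KO (adjusted p 0.0877), so the size of both changes rests on that colony. The Grb10 ranges of the double KO (4.38 to 6.65 CPM) and the miR-302 KO iPSC (3.90 to 22.38 CPM) overlapped. H19 and Igf2r ranges did not overlap, with 64.47 CPM and 10.38 CPM as the lowest values in the miR-302 KO.

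A last test asked whether the double KO change was the sum of the single KO changes on the log2 scale. It departed from the sum for 5 of 10 members, against 20.2% of all genes, both counted in either direction. The share of all genes below the sum is not given here. All 5 members were below it: H19 (−7.26, SE 1.43, adjusted p 0.00378), Igf2 (−4.92, SE 1.57, adjusted p 0.0426), Igf2r (−4.36, SE 0.88, adjusted p 0.00432), Plagl1 (−2.82, SE 0.89, adjusted p 0.0413) and Grb10 (−2.18, SE 0.64, adjusted p 0.0317). The summed Snrpn and Snurf were below it as well (−1.49, SE 0.31, adjusted p 0.00548). Igf2, Grb10 and Plagl1 were close to the threshold and lost the call under 11, 8 and 14 of 24 alternatives. Peg3 was not shown to depart from the sum (−1.01, SE 0.74, adjusted p 0.355). For H19 and Igf2r the call was kept under each of 24 alternatives. Impact (−1.45, SE 0.48, adjusted p 0.0508) and Cdkn1c (−3.25, SE 1.15, adjusted p 0.0639) were just outside the threshold.

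The libraries of 1 colony, or of 1 ESC group, were compared to see how far each member varied within a line. For H19, library 2 was above library 1 in 7 of 8 pairs, by up to 8.0 times, with a median ratio of 2.57. Igf2 had the same count, 7 of 8, with a median ratio of 2.57 and a largest of 4.52. For Cdkn1c it was 7 of 8 pairs (median ratio 1.86) and for Peg10 5 of 8 (median ratio 2.28). Grb10 had ratios between 0.64 and 1.16, the summed Snrpn and Snurf between 0.54 and 1.58, and Plagl1 between 0.56 and 1.35. Peg3 (0.39 to 3.24) and Igf2r (0.35 to 4.29) varied widely with no common direction, library 2 being the higher in 4 of 8 pairs of each. The labels give no batch that library numbers could stand for.

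**Figure D5:**
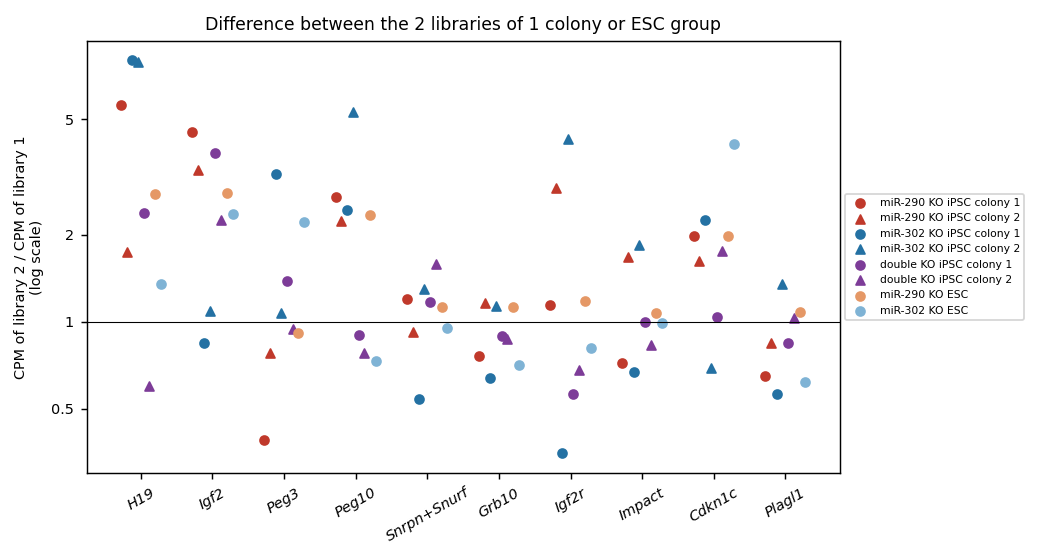
Ratio of the CPM of library 2 to library 1 (log axis) for each imprinted gene in the 6 KO iPSC colonies and the 2 ESC groups. Ratios of H19 run from 0.60 to 8.0 and those of Grb10 from 0.64 to 1.16.

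Between the colonies of the single KO iPSC no member passed (limma, 0.0783% of all genes in the miR-290 KO, with 1141 at an unadjusted p under 0.05, and 0% in the miR-302 KO, with 2021). Grb10 in the miR-302 KO was at 6.05 and 3.90 CPM in colony 1 against 19.88 and 22.38 CPM in colony 2 (log2 difference −2.09, SE 0.31, adjusted p 0.0782). Peg3 (−1.46, SE 0.54, adjusted p 0.443) and Impact (−1.02, SE 0.34, adjusted p 0.386) were lower in both libraries of colony 1 of the miR-290 KO.

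The patterns of the members over the 13 samples are given here as correlations of log2 values. No test was made, since the points share genotypes and libraries, and the members were not sorted into groups. Igf2, Grb10 and Cdkn1c had correlations of 0.81 to 0.86 with each other. H19 went most closely with Igf2r (0.84) and Cdkn1c (0.76), and Peg3 ran against Igf2r (−0.55). Peg3 also ran against the Snrpn row (−0.76), which mixes the level of the transcript with the division of reads between Snrpn and Snurf. Their sum was not correlated. Outside the members, the patterns nearest to H19 were those of Fam83g (0.970) and Nanos3 (0.959), to Igf2 those of Trim67 (0.938) and Btla (0.937), and to Igf2r those of Slc44a4 (0.979) and Platr7 (0.975). For Grb10 they were Pax6 and Dnah10 (both 0.935), for Cdkn1c the Y-linked Uty (0.916) and Igf2os (0.915), and for Plagl1 Ffar3 (0.932) and Abcb1a (0.921). For Peg3 they were Nucks1 and Adgrb2 (both 0.948), for Peg10 Car2 (0.958) and Rnf128 (0.920), for Impact Mir1949 (0.909) and Dmxl1 (0.838), and for the Snrpn row Gins1 (0.961) and Klhl8 (0.954).

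The authors' deposited tables list genes at an adjusted p of at most 0.0499 in each KO iPSC group against WT. In the authors' deposited table for the double KO, 6 members are among 8672 genes: H19 (log2 fold change −5.56), Igf2r (−4.80), Igf2 (−3.62), Grb10 (−3.60), Cdkn1c (−2.71) and Peg3 (2.98). In the authors' deposited table for the miR-290 KO, 4 members are among 1429 genes: Igf2 (2.71), Peg3 (2.53), Cdkn1c (1.92) and Grb10 (1.10). Igf2 (−2.25) is the only member among 43 genes in the authors' deposited table for the miR-302 KO. Plagl1 and Snrpn, called here in the double KO, are in none of the authors' deposited tables.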

How the data were processed

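RNA from 19 libraries was sequenced in single reads after QuantSeq 3′ library preparation, per the labels' protocols. Trim Galore 0.66, STAR, Salmon 1.4.0, FastQC 0.11.9, MultiQC, limma and DESeq2 1.34.0 and the build mm10 (GRCm38) are named, with no order, in the submitters' processing notes. The expression matrix deposited by the authors holds log2 values per gene and library. From the values, these are log2 CPM with a prior of 0.142 CPM, shifted by a constant per gene, so levels are compared within a gene. For 12224 of 12778 genes (95.7%) that constant could be recovered, with 99.7% of values within 0.02 of a whole read, and 9 of the 10 members were among them. CPM and reads given in the text come from this recovery, and 554 genes have none. A count test on these reads was not run. The matrix has 6 further columns that are not used here. The authors' deposited tables give a mean normalized count as signal, a log2 fold change with its standard error, and, per the file headers, a test score and raw and adjusted p-values, and only rows that pass are in them.

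The test was that of limma (version 3.58.1, run under R 4.3.3). It took the log2 values as deposited, averaged over the libraries of a colony, which gave 13 samples in 6 groups. The fit used an intensity trend and estimated sample weights, with 7 residual degrees of freedom and Benjamini-Hochberg adjustment over 12778 genes at 0.05. A log2 change on this scale understates that of genes near the prior. Colonies were compared on libraries with equal weights, with 10 residual degrees of freedom. There were 10 comparisons of groups, 3 of colonies and 1 of the cell types' differences, the last added after seeing the data, as was the sum of Snrpn and Snurf. Where nothing says that libraries of a colony or ESC group are separate cultures, p-values measure the spread between these libraries, which may be technical. The scripts were tested on simulated data. The lists were other imprinted genes, imprint maintenance genes, insulin-like growth factor pathway genes, partners of Cdkn1c, and markers of pluripotency, fibroblasts, primitive endoderm and trophoblast. Named from them are the 3 called genes with the largest rise and the 3 with the largest fall in the double KO, imprinted and imprint maintenance genes called in a single KO, neighbours in the members' domains, and the 2 genes nearest in pattern. Names outside that rule were added after their values were seen: Cdkn1a, Cdkn1b, Dnmt1 and Zfp57 in the double KO, genes of the other lists in the single KOs, and markers between colonies. The members and lists were chosen with earlier results of these data known. The number of a sample is its colony number in the KO iPSC and its library number in WT and ESC. Samples of the same number did not pair across groups, with correlations from −0.27 to 0.18 over 30 pairs. Library numbers within a colony were averaged over, so pairing by them was not tested.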

Additional observations from a re-analysis of the deposited data

Results flagged for a closer look

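In groups of 4 libraries, a library was picked out when its gap to the nearest other was large for the range of the group, which chance alone does in about 1 in 20 groups. The Snrpn row was at 0 CPM in library 2 of colony 2 of the miR-290 KO iPSC and at 61.87 CPM in library 2 of colony 1 of the double KO, where the other 3 were at 0. Summed with Snurf, these libraries had 145.28 and 61.87 CPM and lay with their groups. Peg3 had 75.9 CPM in library 2 of colony 1 of the miR-302 KO iPSC, against 23.41 to 30.83 CPM in the other 3, and this is the library with the lowest correlation with its group. Impact had 73.34 CPM in library 1 of colony 2 of the double KO, against 60.51 to 61.37 CPM in the others.

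The double KO change was below the sum of the single KO changes for H19 (−7.26 on the log2 scale), Igf2 (−4.92), Igf2r (−4.36), Plagl1 (−2.82), Grb10 (−2.18) and the summed Snrpn and Snurf (−1.49). Of all genes, 20.2% departed from the sum. Igf2, Grb10 and Plagl1 lost the call under 11, 8 and 14 of 24 alternatives. The double KO cells also differ in their pluripotency and sex-linked genes, and the part of this in the departure was not tested.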

How the results depend on the processing

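No member changed direction among those called, over 24 alternatives in each comparison of groups. Beside each count of members called, that over all 12778 genes at the same setting is given in brackets. Double KO against WT had 8 members called (6904 genes), and 6 to 8 when samples were left out in turn (5454 to 6943). For the miR-290 KO against WT it was 1 (386), with 4 when libraries were samples (1603) and 0 to 2 with samples left out (26 to 519). For the miR-302 KO against WT it was 0 (5), with 1 when libraries were samples (43) and 0 to 3 with samples left out (2 to 2115, the highest without its colony 2). For the double KO against the miR-290 KO it was 7 (4267), and 5 to 8 with samples left out (3090 to 4247). Against the miR-302 KO it was 4 (4930), with 2 without the trend (4632), 7 with libraries as samples (7396), 2 with only the groups compared (4062), 2 without library 1 of colony 2 of the miR-302 KO, chosen after seeing the data (3558), and 2 to 7 with samples or libraries left out (3558 to 6230). For the miR-290 KO against the miR-302 KO in iPSC it was 1 (23), with 3 under equal weights (287), 0 without the trend (15), 3 with libraries as samples (1031), 3 without library 2 of colony 1 of the miR-302 KO (226), and 0 to 3 with samples left out (6 to 1340, the highest without colony 2 of the miR-302 KO). In ESC it was 1 (79), with 0 under equal weights (75), 0 without the trend (50), 2 with log2(CPM + 1) (93), 2 at a mean of at least 1 CPM (81), 2 with libraries as samples (143), 0 without library 2 of colony 1 of the miR-302 KO iPSC (69), and 0 to 3 with samples left out (3 to 1099, the highest without library 1 of the miR-302 KO ESC). Between iPSC and ESC it was 0 for the miR-290 KO throughout, and 0 to 1 for the miR-302 KO with samples left out (0 to 703, the highest without its colony 2). For departure from the sum it was 5 (2583), with 2 without the trend (2159), 2 with only the groups compared (2396), 3 without library 1 of colony 2 of the miR-302 KO (1642), and 2 to 6 with samples or libraries left out (1642 to 4028). Between double KO colonies it was 2 (370), with 6 under estimated weights (2131) and 1 with any library left out (159 to 189). Between miR-302 KO colonies it was 0 (0), with 1 without the trend (12) and 0 to 2 with libraries left out (0 to 5183, the highest without library 1 of colony 1). The causes were not tested.

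The sample number, which is the colony number in the KO iPSC, was also used as a block. The members called in the miR-290 KO against the miR-302 KO iPSC then went from 1 to 0, and all genes called there from 23 to 14. Sample numbers did not pair the samples across groups, and library numbers within a colony were not used as a block. With libraries as samples, the double KO against WT had 8350 genes past the test. Genes with few reads, such as Igf2 (7 reads) and Igf2r (7 reads) in double KO libraries, have wide counting error there.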
